A study of Drosophila melanogaster with 2 samples.

Results

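The genes described here encode the enzymes of glutathione and redox metabolism in *Drosophila*. They are the glutathione S-transferases (GSTs), the enzymes that make glutathione, the superoxide dismutases and catalases, the peroxiredoxins, the thioredoxins with their reductases, and the methionine sulfoxide reductases. The rule that picks them uses gene symbols and no measured value, although the families were proposed with earlier results of these data known. Of 59 current symbols that fit these family names, 51 had at least 1 probe set that names a single gene, with 57 probe sets in all, out of 10844 named genes and 14010 probe sets on the array. RNA came from homozygous *mid* mutant embryos and from *yw* embryos, collected at 25 °C and aged to 16 h after egg laying. *mid* encodes a T-box transcription factor, and *yw* flies are mutant for *yellow* and *white*, which act in body and eye color. The labels give no *mid* allele, and the stock named in the Methods carries *mid1* over a balancer chromosome. *mid* mutants were identified through a CyOact-GFP balancer, and the number of embryos per extract is not given. The labels set the mutant beside *yw*, whereas the Methods set it beside heterozygous *mid* embryos, so the stock background and the *mid* genotype cannot be told apart. One array was hybridized per genotype, so differences cannot be set against replicate error and p-values are not reported.

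Glutathione is the main small thiol of the cell. GSTs join it to lipid peroxides, plant toxins and insecticides, which makes these compounds easier to export, and the delta and epsilon classes are expanded in insects. Superoxide dismutases turn superoxide into hydrogen peroxide, which catalases and peroxiredoxins then remove. Flies have no glutathione reductase, and thioredoxin reductase keeps both glutathione and thioredoxin reduced. Many of these genes respond to oxidants and toxins through the transcription factor CncC, the fly homolog of Nrf2, and its inhibitor Keap1.

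Signals are MAS5 intensities, which are reported on a linear scale. The median signal was 43.3 on the *mid* array and 150 on the *yw* array, so the *mid* array was multiplied by 3.46 which puts all signals below on the *yw* scale. A floor of 97.6, the 40th percentile of the pooled signals, replaced lower values before log2 fold changes (*mid* over *yw*) were taken. A gene was called higher or lower at more than 2-fold by its brightest probe set. Probe sets of the same gene scattered about their gene with an SD of 0.53 on the log2 scale over 287 genes, which gives a scale of technical disagreement without replicates. The 9 spiked control probe sets give another, as their ratios of *yw* to *mid* signal, as deposited, ran from 2.32 to 3.39. The probe set of *mid* itself was under the floor on both arrays, with 56.8 in *mid* and 49.3 in *yw* embryos, and checks nothing about the genotype. For 3 of 4 control transcripts, the 3′ probes exceeded the 5′ probes by more on the *mid* array, with a ratio, for example, of 53.5 in *mid* and 28.8 in *yw* embryos for actin. Some tissue markers differed by more than 2-fold between the arrays, where 5.66% of all measured genes were called higher and 4.53% lower. Of the marker genes above the floor on at least 1 array, 3 of 5 neuronal (*Ace*, *elav*, *fne*), 3 of 7 hemocyte (*NimC1*, *PPO2*, *srp*), 1 of 5 tracheal (*serp*), 1 of 3 Malpighian tubule (*Irk3*) and 1 of 2 fat body genes (*srp* again) were more than 2-fold higher. *NimC1* is a bound, with 64.5 in *yw*, under the floor. A dimmer probe set of *PPO2* went the other way, at least 1.68-fold lower in *mid*. The neuronal gene *Appl* (log2 fold change -0.25) and the hemocyte gene *Hml* (-0.38) were below 0. More than 2-fold lower were 2 of 8 midgut genes (*Amy-d*, *Jon74E*), and 0 of 4 oenocyte genes were called.

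Most glutathione and redox genes were within 2-fold between *mid* and *yw* embryos, as were most of all measured genes. Of the 46 genes above the floor on at least 1 array, 1 was called higher in the *mid* mutant, 1 was called lower and 44 were within 2-fold. Among all 7687 measured genes, 10.2% were called in either direction, 5.66% higher and 4.53% lower, against 4.35% of these genes. The 46 genes were also brighter, with a median signal of 730 in *mid* and 797 in *yw* embryos. All measured genes had 333 in *mid* and 322 in *yw* embryos. The 2 calls among 46 genes are too few to tell from the 10.2%. With only the 44 genes that both arrays measured above the floor, these 2 calls stood, against 8.86% of all genes at that level (5.27% higher and 3.59% lower). More than 1.5-fold apart were 9 of the 46, against 29.5% of all measured genes, and more than 3-fold 0, against 2.72%. Log2 fold changes were above 0 for 24 of the 46 genes and for 54.8% of all measured genes. The gene called higher was *GstE8*, and the gene called lower was *GstD8*, each a member of a large GST family. The median log2 fold change of the 46 genes was 0.02, with quartiles of -0.30 and 0.23. All measured genes had a median of 0.06, with quartiles of -0.29 and 0.41. For 36 of the 46 genes the log2 fold change stayed within that SD of 0.53, as it did for 66.2% of all measured genes. Of the 10 beyond it, 5 were above 0 and 5 below. In bulk RNA, fewer cells of a type and less RNA per cell cannot be told apart.

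Many of these genes gave strong signal. In both genotypes, 43 of the 51 genes lay above the median of all probe sets, and 16 lay in the top 10% of probe sets on both arrays. Over the 46 measured genes, log2 signals on the arrays had a Pearson r of 0.95, where all measured genes had 0.88. This describes genes that share the same hybridization, with signals taken before the floor. Both arrays were above the floor for 44 of the 46 genes but for 6374 of all 7687, so these r values cover unlike sets. *GstD1*, a delta GST that acts on DDT and is widely used as a readout of CncC activity, had a signal of 18512 in *mid* and 20360 in *yw* embryos. *Trx2*, which encodes the cytosolic thioredoxin, read 10394 in *mid* and 10975 in *yw* embryos. *SelR*, which encodes a methionine-R-sulfoxide reductase, read 7419 in *mid* and 6209 in *yw* embryos. The arrays differed by less than 1.5-fold for each of these genes. At the other end, *GstE14*, *GstO1*, *Prx1*, *TrxT* and *Trxr2* were under the floor on both arrays and have no fold. *GstE14* is required for ecdysteroid synthesis in the prothoracic gland, and *TrxT* encodes a testis thioredoxin.

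**Figure D1:**
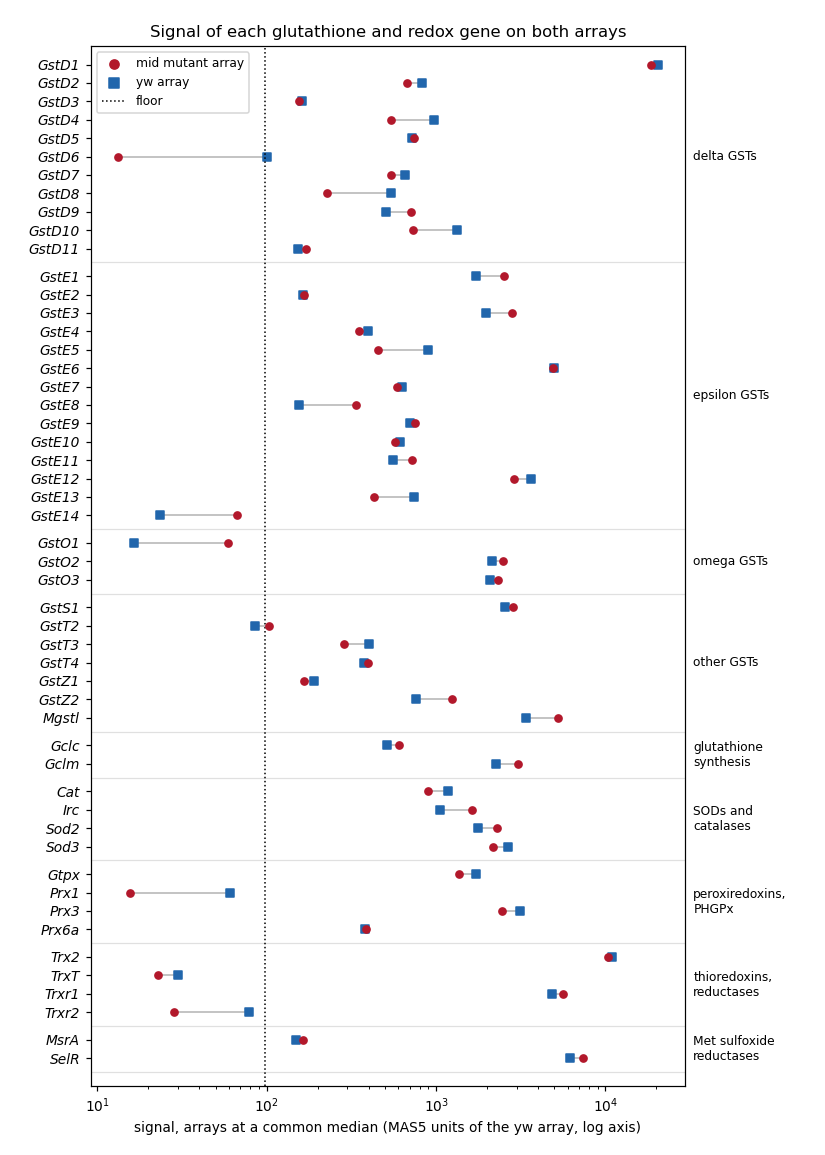
Signal of the 51 genes by their brightest probe set, with the *mid* array (circles) and the *yw* array (squares) at a common median, on a log axis in MAS5 units, and the floor of 97.6 as a dotted line. Most pairs of points lie close together, while *GstD8* and *GstE8* are more than 2-fold apart above the floor.

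Among the delta GSTs, *GstD8* was the only gene called. *GstD8* read 228 in *mid* and 540 in *yw* embryos, 2.37-fold lower, with a log2 fold change of -1.24. *GstD4* read 539 in *mid* and 973 in *yw* embryos (log2 fold change -0.85), and *GstD10* read 736 in *mid* and 1327 in *yw* embryos (-0.85). All 3 of these differences exceeded the SD between probe sets. *GstD9* had the highest log2 fold change of the class, 0.51, with 716 in *mid* and 504 in *yw* embryos, which is within that SD. Of the 11 delta genes, 3 had log2 fold changes above 0, where 54.8% of all measured genes did, and 8 had them below. The median was -0.14, and apart from *GstD4*, *GstD8* and *GstD10* none exceeded that SD. *GstD6* counts among the 8 only as a bound. It read 13.2 in *mid*, under the floor, and 100 in *yw*, just above it, so it was at least 1.03-fold lower. The other delta genes, *GstD2*, *GstD3*, *GstD5*, *GstD7* and *GstD11*, lay between -0.30 and 0.15.

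The epsilon GSTs were spread around 0, with a median of -0.03 over 13 measured genes, 6 above 0 and 7 below. *GstE8* read 337 in *mid* and 156 in *yw* embryos, 2.16-fold higher. Its level in *yw* was less than 2-fold above the floor, and raising the floor to the 60th percentile put *yw* under it and ended the call, leaving a bound of 0.56 on the log2 scale. It was not called either with the arrays scaled by spiked controls or by an equal mean of central values, or with the values as deposited. These settings shift all genes. Net of that shift, its log2 fold change was 1.09 with the spiked controls and 1.10 with the equal central mean. Both scalings multiply an array by a constant, so these values could hardly differ from the 1.11 of the main setting. *GstE5* read 452 in *mid* and 898 in *yw* embryos, 1.99-fold lower and just short of a call, and *GstE13* read 428 in *mid* and 741 in *yw* embryos (log2 fold change -0.79). *GstE1* and *GstE3* leaned the other way. *GstE1* read 2520 in *mid* and 1729 in *yw* embryos (log2 fold change 0.54), and *GstE3* read 2822 in *mid* and 1977 in *yw* embryos (0.51). The remaining 8 measured epsilon genes lay between -0.33 and 0.37, among them *GstE6*, with 4914 in *mid* and 5004 in *yw* embryos.

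**Figure D2:**
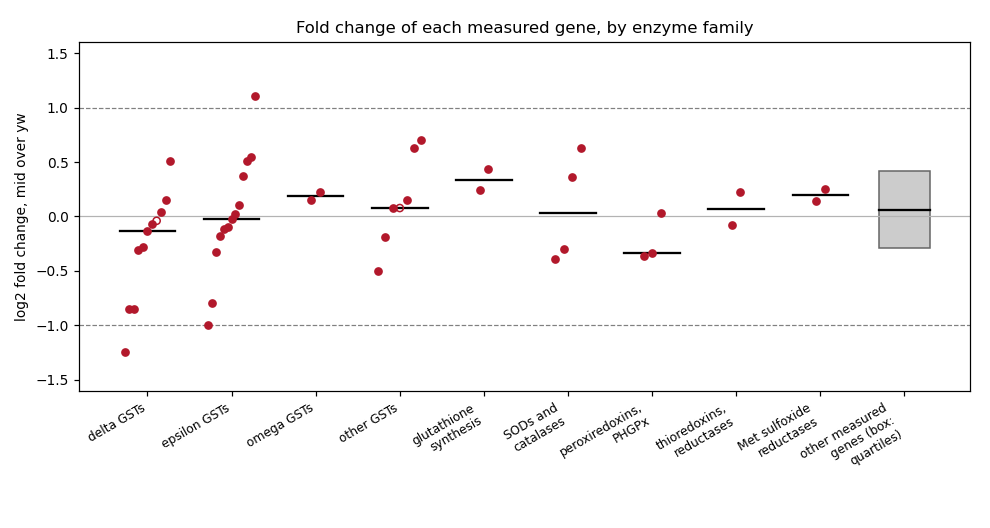
Log2 fold change (*mid* over *yw*) of each measured gene by enzyme family, with a black line at the family median, open circles for bounds, dashed lines at 2-fold and a box for the quartiles of the other measured genes. Only *GstD8* (-1.24) and *GstE8* (1.11) lie beyond the dashed lines.

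Most delta and epsilon genes stand in tandem arrays that arose by gene duplication. In the RefSeq gene table, the 11 delta genes follow each other on chromosome arm 3R with 2 other genes among them, and *GstE10* and *GstE1* to *GstE9* do so on 2R, also with 2 other genes among them. Values of neighbors ranged from runs on one side of 0 to jumps between adjacent genes. *GstD1* to *GstD4* were all below 0, as were *GstD6* to *GstD8*, with *GstD6* as a bound, and *GstE4* to *GstE7*. *GstD8*, called lower, stands between *GstD7* (log2 fold change -0.28) and *GstD11* (0.15). *GstD10* (-0.85) stands next to *GstD9* (0.51). *GstE8*, called higher, stands between *GstE7* (-0.11) and *GstE9* (0.11), and *GstE5* (-0.99) stands between *GstE4* (-0.18) and *GstE6* (-0.03). The 10 genes of the epsilon array had 5 log2 fold changes above 0 and 5 below. Sequences of neighboring copies are similar, and cross-hybridization between their probe sets was not tested.

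**Figure D3:**
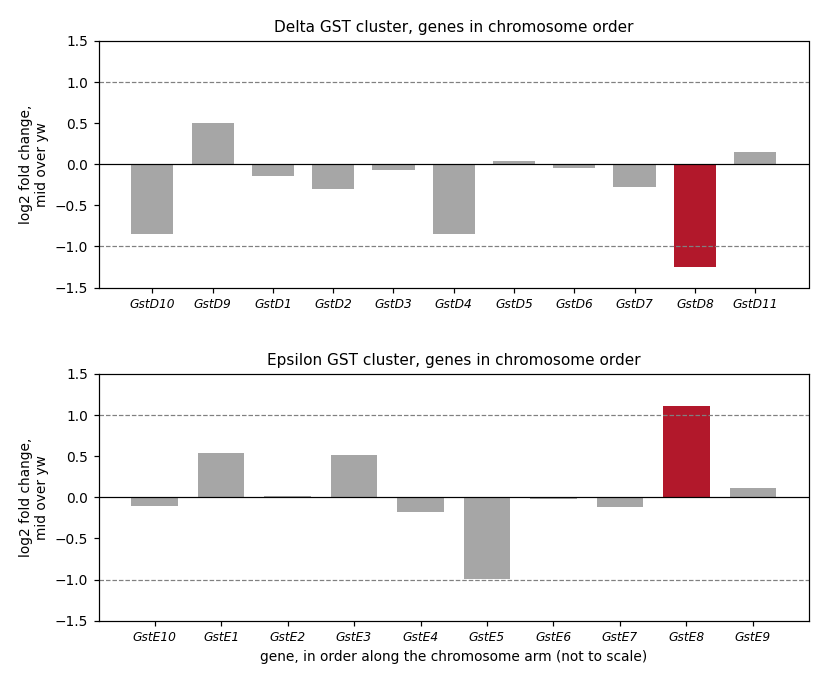
Log2 fold change (*mid* over *yw*) of the delta GST genes (top) and of the epsilon GST genes of the tandem array (bottom) in their order along the chromosome arm, with dashed lines at 2-fold and genes called higher or lower in red. *GstD6* is at the floor on the *mid* array, so its bar is a bound, and neither *GstD8* nor *GstE8* has a neighbor beyond 2-fold.

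None of the other GSTs was called by its brightest probe set. *GstO2* and *GstO3*, of the omega class, which remove glutathione from proteins and reduce dehydroascorbate, had log2 fold changes of 0.22 and 0.15. *GstS1*, the sigma class enzyme, which conjugates products of lipid peroxidation, read 2846 in *mid* and 2564 in *yw* embryos. *GstZ2*, of the zeta class that works in tyrosine breakdown, read 1245 in *mid* and 763 in *yw* embryos (log2 fold change 0.71). Its paralog *GstZ1* lay on the other side of 0, with 167 in *mid* and 191 in *yw* embryos (-0.19). Among the theta genes, *GstT3* had the lowest value, with 285 in *mid* and 403 in *yw* embryos (-0.50), while *GstT4* read 395 in *mid* and 375 in *yw* embryos. *GstT2* read 103 in *mid* and 85.8, under the floor, in *yw* embryos, a difference of at least 1.06-fold.

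*Mgstl* encodes a microsomal GST of the endoplasmic reticulum membrane, and its call depended on the probe set. By the brightest of 3 probe sets it read 5223 in *mid* and 3377 in *yw* embryos, 1.55-fold higher and within 2-fold. The other probe sets read 755 in *mid* and 145 in *yw* embryos (5.23-fold) and 452 in *mid* and 172 in *yw* embryos (2.62-fold). All 3 were higher in the *mid* mutant, and the median over them, 1.39 on the log2 scale, would be a call. *GstO2* also had 3 probe sets that were all higher in the *mid* mutant, from 1.17-fold by the brightest to at least 2.55-fold by the dimmest, which was at the floor in *yw* (249 in *mid* and 91.1 in *yw*). The third gene with 3 probe sets, *Sod3*, encodes an extracellular superoxide dismutase, and its probe sets disagreed in direction. It read 2165 in *mid* and 2670 in *yw* embryos by the brightest and 631 in *mid* and 865 in *yw* embryos by the next. The dimmest read 146 in *mid* and 20.04 in *yw* embryos, at least 1.5-fold higher, as it was at the floor in *yw*. No other gene of these families had more than 1 single-gene probe set, so agreement between probe sets could be seen for 3 genes.

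**Figure D4:**
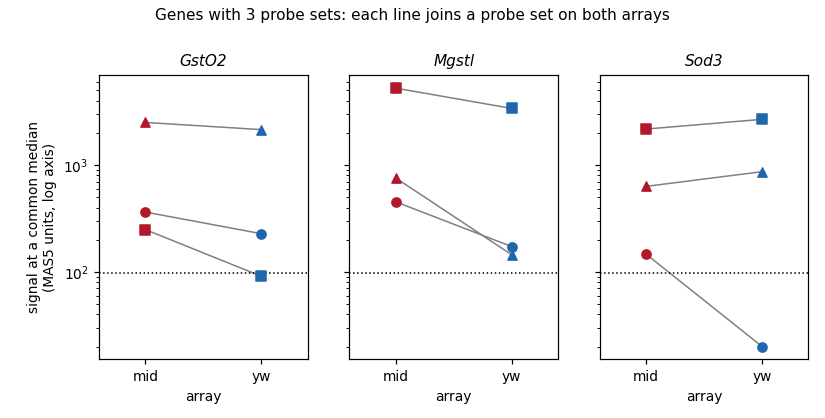
Signal of each probe set of *GstO2*, *Mgstl* and *Sod3* on the *mid* array (left of each panel) and the *yw* array (right), on a log axis in MAS5 units, with the floor dotted. All 3 lines of *GstO2* and *Mgstl* are higher in *mid*, while the dimmest line of *Sod3* runs against its other two.

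Glutathione is made from glutamate, cysteine and glycine in a pair of steps. Both subunits of glutamate-cysteine ligase, the rate-limiting enzyme, were within 2-fold. *Gclc*, the catalytic subunit, read 607 in *mid* and 514 in *yw* embryos (log2 fold change 0.24), and *Gclm*, the modifier subunit, read 3061 in *mid* and 2264 in *yw* embryos (0.44). For the last step, a single probe set detects the glutathione synthetase genes *Gss1* and *Gss2* together. As it names both genes it is outside the 57 probe sets, and it read 5944 in *mid* and 2778 in *yw* embryos, 2.14-fold higher.

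Apart from *Prx1*, which has no fold, the measured genes for enzymes that remove superoxide and peroxides were within 2-fold by their brightest probe sets. *Sod2*, the mitochondrial superoxide dismutase, read 2279 in *mid* and 1772 in *yw* embryos (log2 fold change 0.36). *Cat*, the peroxisomal catalase, had the lowest value of these genes, with 893 in *mid* and 1174 in *yw* embryos (-0.39). *Irc*, a secreted catalase that limits oxidants in the gut, had the highest, with 1625 in *mid* and 1050 in *yw* embryos (0.63), the only one of them beyond the SD between probe sets. *Prx3*, the mitochondrial peroxiredoxin, read 2438 in *mid* and 3142 in *yw* embryos (-0.37). *Gtpx*, known as *PHGPx*, encodes a glutathione peroxidase homolog and read 1369 in *mid* and 1728 in *yw* embryos (-0.34). *Prx6a*, a peroxiredoxin with a single catalytic cysteine, differed least, with 387 in *mid* and 380 in *yw* embryos. A probe set shared by *Prx6b*, *Prx6c* and *CG12896* read 1802 in *mid* and 1828 in *yw* embryos. *Sod1*, *Prx2*, *Prx4*, *Prx5* and *GstT1* are not analysed here, because none of them matched a probe set of its own.

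*Trxr1*, which stands in for glutathione reductase in flies, read 5614 in *mid* and 4808 in *yw* embryos (log2 fold change 0.22), and *Trx2* had a log2 fold change of -0.08. Both methionine sulfoxide reductase genes were slightly above 0, *SelR* at 0.26 and *MsrA*, which repairs the S form of oxidized methionine, at 0.14 (164 in *mid* and 149 in *yw* embryos). *dhd* encodes a thioredoxin of the female germ line and early embryo, but its symbol does not carry the family name, so it is not among the 51 genes. It was called lower, with 117 in *mid* and 312 in *yw* embryos (2.67-fold). Had synonyms been used for the family names, *dhd* and *trx* (trithorax, a chromatin regulator) would have joined the measured genes, and 1 of 48 would have been called higher and 2 lower. *Grx1*, a glutaredoxin that uses glutathione to reduce disulfides, was called higher, with 2789 in *mid* and 1256 in *yw* embryos (2.22-fold). *dhd* and *Grx1* were the only calls among 9 measured genes of other thiol and disulfide enzymes, against 10.2% of all measured genes. The median of the 9 was 0.13. The endoplasmic reticulum oxidase gene *Ero1L* and the disulfide isomerase gene *Pdi* had log2 fold changes of 0.76 and -0.41.

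The regulators of the antioxidant response showed no call among 7 measured genes, with a median of 0.02. Among all measured genes 10.2% were called, and 7 genes are too few to tell from that share. *cnc* was dim, with 111 in *mid* and 110 in *yw* embryos by the brightest of 4 probe sets, just above the floor. *Keap1* read 312 in *mid* and 244 in *yw* embryos (log2 fold change 0.35). *maf-S*, which encodes the small Maf partner of CncC, read 2464 in *mid* and 2223 in *yw* embryos (0.15). *ref(2)P*, the fly p62, had the lowest value of the list, with 720 in *mid* and 1176 in *yw* embryos (-0.71).

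None of the 7 measured genes listed for NADPH supply was called, where 10.2% of all measured genes were, and their median was 0.26. That median is the value of *Idh3a*, whose product belongs to an NAD-dependent enzyme. *Zw* and *Pgd*, also on that list, were not among the measured genes. The highest was the transaldolase gene *Taldo*, with 4625 in *mid* and 2422 in *yw* embryos (1.91-fold), and the lowest was the isocitrate dehydrogenase gene *Idh*, with 9276 in *mid* and 14049 in *yw* embryos (log2 fold change -0.60). The malic enzyme genes *Men* and *Men-b* had log2 fold changes of 0.47 and 0.48. Of 7 measured genes of sulfur amino acid and glutathione turnover, 2 were called lower and 0 higher, where 4.53% of all measured genes were called lower. Their median was -0.35, with 5 genes below 0 and 2 above, *AhcyL1* (0.43) and *Sam-S* (0.06). *Gnmt*, which encodes glycine N-methyltransferase and consumes S-adenosylmethionine, read 976 in *mid* and 3205 in *yw* embryos (3.28-fold lower). *Cbs*, which encodes cystathionine beta-synthase on the path from methionine to cysteine, read 785 in *mid* and 2454 in *yw* embryos (3.12-fold lower). *Cth*, which encodes the next enzyme of that path, read 1334 in *mid* and 2438 in *yw* embryos (1.83-fold lower and not called), while *Sam-S*, which makes S-adenosylmethionine, read 23292 in *mid* and 22338 in *yw* embryos. Of 7 measured genes of conjugate export and other detoxification, none was called, against 10.2% of all measured genes, with a median of 0.14. The exporter gene *MRP* read 7176 in *mid* and 4638 in *yw* embryos (log2 fold change 0.63), and *Mdr65* read 1758 in *mid* and 969 in *yw* embryos (0.86).

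**Figure D5:**
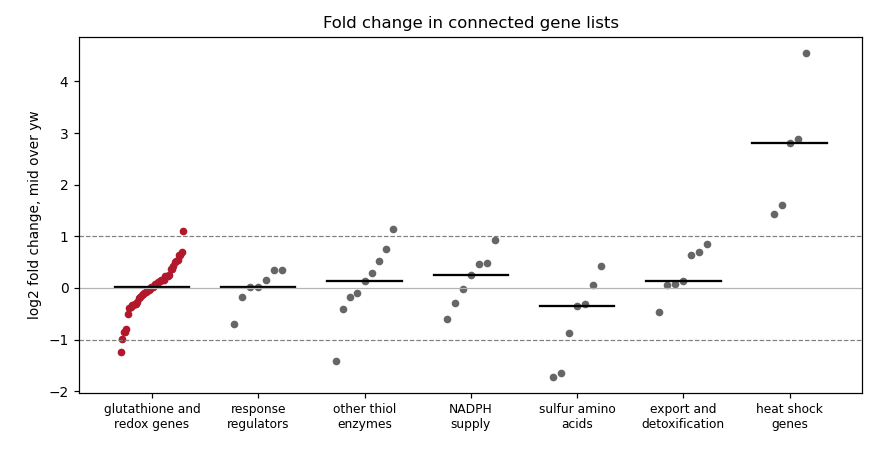
Log2 fold change (*mid* over *yw*) of the measured glutathione and redox genes (red) and of the genes of 6 connected lists (gray), with a black line at each median and dashed lines at 2-fold. The glutathione and redox genes have a median of 0.02, the sulfur amino acid list of -0.35 and the heat shock genes of 2.81.

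Heat shock genes were the list that differed most between the arrays. Only 5 of the 16 genes listed were measured, and *Hsp22*, *Hsp23*, *Hsp83* and the *Hsp70* genes were not among them. All 5 measured members were called higher, with a median log2 fold change of 2.81, and *Hsp68* read 6007 in *mid* and 257 in *yw* embryos. The others were *Hsp26* (7.43-fold), *Hsp27* (7.03-fold), *DnaJ-1* (3.06-fold) and *stv* (2.71-fold). Of all measured genes, 5.66% were called higher. Of the tissue markers, the summed signal of 8 midgut genes was 30180 in *mid* and 45387 in *yw* embryos. Most of that difference came from *Jon74E*, with 908 in *mid* and 8449 in *yw* embryos, and from *Jon65Aiii*, *alphaTry* and *Amy-d*, while 3 of the 8 (*Vha100-4*, *mex1* and *Mal-A1*) were above 0. The summed signal of 7 named neuronal genes was 2675 in *mid* and 1515 in *yw* embryos and that of 6 named tracheal genes 14089 in *mid* and 7339 in *yw* embryos. The fat body markers *Fbp1*, *Fbp2* and *Lsp2* were under the floor on both arrays, whereas *apolpp* read 8047 in *mid* and 5443 in *yw* embryos. The part of these tissues, of heat shock and of RNA quality in the GST values was not tested.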

How the data were processed

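The authors deposited MAS5 signal intensities (linear) for 1 array of *mid* and 1 of *yw* embryos, from biotin-labelled RNA on Affymetrix *Drosophila* arrays. The MAS5 version and scaling target were not given in the sources used here, and no detection calls were used. The array medians differed, so both arrays were brought to a common median. Spiked controls gave a ratio of 2.76 in place of 3.46. Symbols came from the platform annotation and were updated by gene ID through a RefSeq table (Release 6). Of 14010 probe sets, 12443 had 1 symbol, 327 several and 1240 none. Family patterns were applied to current symbols and single names also to unique synonyms. Patterns on synonyms, tried as an added alternative, would add *dhd*, *CG12896* and *trx* (trithorax, no redox enzyme). The members and gene lists were chosen with earlier results of these data known. With several probe sets, the brightest stood for a gene. All members could be named. Both values are given for those called, those with several probe sets and the extremes of each family. Of the other 13 lists (6 of genes connected to these families or to stress, 7 of tissue markers), genes called were named, up to 6 per list, with *cnc*, *Keap1* and *maf-S*. *GstD1*, *Trx2*, *SelR* and further genes within 2-fold were added after their values were seen. A promoter motif search that had been planned was not run, as no sequence was used here. The computation was tested on simulated data. Alternatives were 5 scalings, no floor or one at the 20th or the 60th percentile, thresholds of 1.5-fold and 3-fold, and the median over probe sets. Computation ran under Python 3.11.15 with pandas 2.3.3 and numpy 2.4.6, loess with statsmodels 0.14.6, and plots with matplotlib 3.10.9.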

Additional observations from a re-analysis of the deposited data

How the results depend on the processing

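Precision is limited by having 2 arrays, and signal near the floor limits the fold of dim genes. The scaling moved the median of all measured genes by -1.65 as deposited, -0.30 with the spiked controls and -0.11 with an equal mean of central values. Counts and called genes below include this shift of all genes, whereas medians are given net of it. Net of it, the log2 fold change of *GstE8* was 1.09 with the spiked controls and 1.10 with the equal central mean. Both values could hardly move from the 1.11 of the main setting, as each setting multiplies an array by a constant. The median of the glutathione and redox genes stayed between -0.04 and 0.03. All 72 family medians, which leave out the values as deposited, moved by less than the SD between probe sets, a wide scale for a median. With the spiked controls and the equal central mean, these medians could hardly move. Both settings multiply an array by a constant, and the shift of all genes is then taken out. Called genes numbered 2 (1 higher, 1 lower) by the main setting. As deposited they numbered 43 (0 higher, 43 lower), where 76.2% of all measured genes were lower. With the spiked controls they were 5 (0 higher, 5 lower), 11.1% of the measured members, where 11.9% of all measured genes were called. With the equal central mean 0 were higher and 2 lower (*GstD8* and *GstE5*), where 9.92% of all were called. Quantile or loess scaling gave 1 higher and 2 lower, with *GstE5* added, where 9.62% and 9.86% of all were called. The spiked controls also added *GstD4*, *GstD10* and *GstE13* as lower and lost *GstE8*. Of calls over all measured genes, 55.6% were higher by the main setting, 22.1% with the spiked controls and 43.3% with the equal central mean. Lowering the floor to the 20th percentile gave 5 called genes (2 higher, 3 lower), where 18.5% of all genes were called. No floor gave 7 (3 higher, 4 lower), where 24.3% were, and the 60th percentile gave 1 (0 higher, 1 lower), where 7.45% were. The median over probe sets gave 2 higher and 1 lower, adding *Mgstl*, where 9.90% of all measured genes were called. At 1.5-fold 9 were called (4 higher, 5 lower), against 29.5% of all measured genes, and at 3-fold 0 (0 higher, 0 lower). Family names matched to synonyms too, an alternative chosen after seeing the data, gave 1 higher and 2 lower, adding *dhd*. *GstD8* was called lower in each of these settings except at 3-fold. No paired analysis was possible because each genotype had 1 array.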
